A study of Homo sapiens with 15 samples.

Results

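The JAK kinases and STAT factors relay cytokine signals inside the cell, and their transcripts were compared here across 9 human lymphoid cell lines. A total of 9 genes were listed: JAK1, JAK2, JAK3, STAT2, STAT3, STAT4, STAT5A, STAT5B and STAT6. A gene was represented by the probe set with the highest mean over 15 arrays among the probe sets that carried its symbol alone in the array annotation. That rule found 8 of the 9 genes, with 25 probe sets among them, out of 19775 genes and 41091 probe sets with 1 symbol. STAT2 had no probe set of that kind and is not analysed here.

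RNA of each culture was hybridised to Affymetrix U133 Plus 2.0 oligonucleotide arrays. The labels give classical Hodgkin lymphoma as the source of 6 lines with 10 arrays: HDLM2, KM-H2, L1236, L428, L540 and L540Cy. They give Burkitt lymphoma for Namalwa, B non-Hodgkin lymphoma for SU-DHL-4 and B acute lymphoblastic leukaemia for Reh, with 5 arrays, and these 3 are called the non-Hodgkin lines below. Biological duplicates were made of 6 lines, and L540, L540Cy and SU-DHL-4 have 1 array each, per the series' design text. No treatment is named for any culture. Each line descends from the tumour of 1 patient, so 5 Hodgkin lines of origin stood against 3 non-Hodgkin lines. L540Cy is known as a subline of L540 and was averaged with it in comparisons between groups of lines. By background knowledge, not by the labels, the tumour cells behind HDLM2 and L540 were of T cell origin and those behind the other 3 Hodgkin lines of B cell origin.

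JAK kinases sit on the inner ends of cytokine receptors. When a cytokine brings the receptor chains together, the kinases phosphorylate each other and the receptor, STAT proteins dock there and are phosphorylated in turn, and STAT dimers then enter the nucleus and switch on target genes. JAK3 pairs with the common gamma chain of the interleukin-2 receptor family, JAK1 serves many receptor types, and JAK2 serves receptors such as those of erythropoietin and GM-CSF. Hodgkin and Reed-Sternberg cells are known for constantly active STAT signalling, which arises from mutations in inhibitors of the pathway, from extra copies of the JAK2 region and from cytokines that the cells make themselves. An expression array measures transcript, not phosphorylation, so none of the values below is a measure of pathway activity.

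Markers of the labelled diseases were checked in every array. Of 7 B cell markers measured, 6 to 7 had a log2 signal over 8 in each non-Hodgkin array and 0 to 1 in each Hodgkin array. Of 7 markers of Hodgkin and Reed-Sternberg cells, 5 to 7 passed 8 in the Hodgkin arrays and 0 to 1 in the others. T cell markers passed 8 in 0 to 2 of 9 cases in every array, HDLM2 and L540 included. The array labelled Reh replicate 1 stood apart: 22 genes that SU-DHL-4 had over 3 log2 above every array other than Reh replicate 1 were higher in Reh replicate 1 than in Reh replicate 2 by a median of 3.995 log2. The choice of these genes bounds Reh replicate 2 and not replicate 1, so the size of that value is partly set by it. Calls and overlaps of members that change without that array are given below.

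The promoters of JAK3, STAT3 and STAT5A are shown first, since the line means of these 3 genes did not overlap between Hodgkin and non-Hodgkin lines in the comparison below, JAK3 only with both Reh arrays. Each is the 250 bases before a RefSeq transcription start in build GRCh38.p14, read 5′ to 3′ on the gene's strand, and capitals mark a match to the NF-kB motif GGGACTTTC. The JAK3 window is chr19:17847983-17848232 on the minus strand, the STAT3 window chr17:42388443-42388692 on the minus strand, and the STAT5A window chr17:42287189-42287438 on the plus strand.
JAK3: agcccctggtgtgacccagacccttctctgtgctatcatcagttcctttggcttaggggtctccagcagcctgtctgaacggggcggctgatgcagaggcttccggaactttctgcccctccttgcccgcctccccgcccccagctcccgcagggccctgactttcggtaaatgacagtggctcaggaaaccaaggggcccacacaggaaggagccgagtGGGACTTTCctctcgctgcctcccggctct
STAT3: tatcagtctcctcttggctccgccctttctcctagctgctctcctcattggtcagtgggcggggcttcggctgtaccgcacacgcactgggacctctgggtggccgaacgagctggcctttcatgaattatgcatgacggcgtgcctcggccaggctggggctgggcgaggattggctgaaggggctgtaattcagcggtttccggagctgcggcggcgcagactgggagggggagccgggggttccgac
STAT5A: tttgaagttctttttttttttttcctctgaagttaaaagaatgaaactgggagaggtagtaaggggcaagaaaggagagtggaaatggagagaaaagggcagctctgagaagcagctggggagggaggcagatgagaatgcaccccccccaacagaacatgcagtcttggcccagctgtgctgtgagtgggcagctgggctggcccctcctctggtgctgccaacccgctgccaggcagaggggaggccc
The JAK3 match lies 30 to 22 bases before the start. Over the 17 start windows of all 9 listed genes, each of 300 bases (250 before and 50 after the start), GGGACTTTC occurred in 1, on either strand, against 0.387% of 35116 RefSeq windows of that length. The STAT dimer motif TTCNNNGAA occurred in 0 of the 17 windows, against 7.66% of all windows. The AP-1 motif TGANTCA occurred in 1, at an upstream start of STAT4, against 7.71%. No motif overlapped another in these windows, and the letters describe the windows only.

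STAT5A and STAT3 were higher in every Hodgkin line than in any non-Hodgkin line, and so was JAK3 over the means of both Reh arrays. STAT5A was the gene among the 8 that passed the test. The difference in STAT5A was 2.51 ± 0.38 log2 (SE, 5 lines against 3; limma, adjusted p = 0.0273). STAT3 differed by 2.75 ± 0.58 (adjusted p = 0.0787) and JAK3 by 3.08 ± 0.80 (adjusted p = 0.139). Differences are in log2 signal, Hodgkin minus non-Hodgkin, over line means, and p-values are two-sided and adjusted by Benjamini-Hochberg over all genes, with 0.05 as the threshold for a call. Of the 8 members 1 was called, against 1.37% of all genes in either direction and 0.759% called higher. Groups that did not overlap were found in 3 of 8 members and 10.7% of all genes. Without Reh replicate 1 they were found in 2 of 8, STAT5A and STAT3, and 9.95% of all genes. The differences were then 2.42 in STAT5A (adjusted p = 0.0433), 2.75 in STAT3 (0.0925) and 3.003 in JAK3 (0.187), and no call among the 8 changed. An unadjusted p under 0.05 was reached by 5 of 8 members and 14.2% of all genes. All 8 differences were positive, as were 46.1% over all genes, and the members' median was 2.13 against -0.02 for all genes. The call for STAT5A depended on the lines included: it was lost without HDLM2 (adjusted p = 0.0540), L540 (0.0670), Reh (0.0648), Namalwa (0.0997) or SU-DHL-4 (0.0804), with differences of 2.29 to 2.63. B cell markers separate the same groups, and their part in the difference was not tested. In whole cultures, fewer expressing cells and less RNA per cell cannot be told apart.

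**Figure D1:**
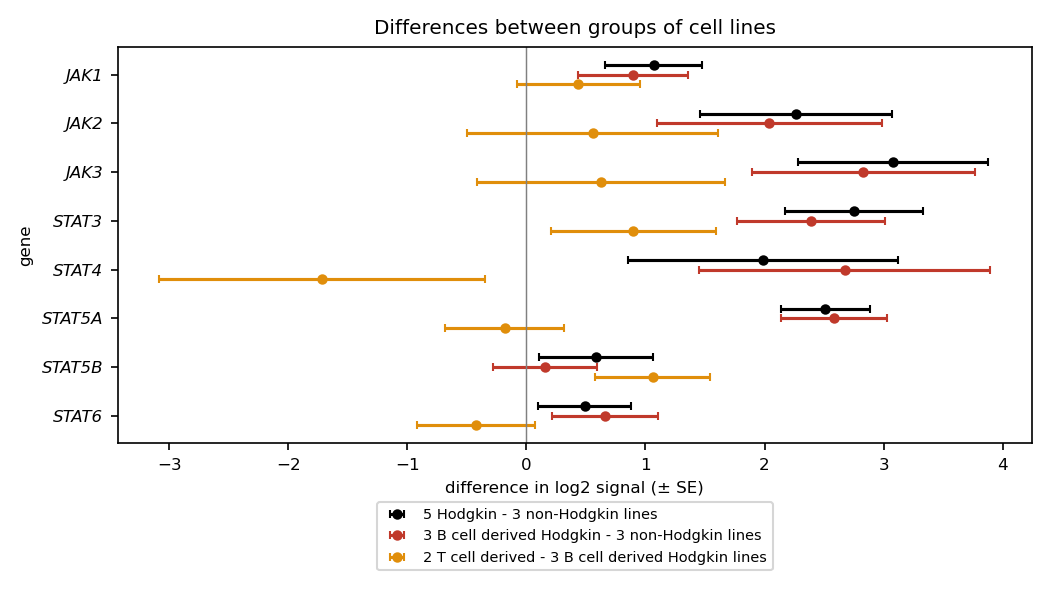
Differences in log2 signal (horizontal axis, bars ± SE of the limma fit) for the 8 genes in 3 contrasts of line means: Hodgkin minus non-Hodgkin (black), B cell derived Hodgkin minus non-Hodgkin (red) and T cell derived minus B cell derived Hodgkin (orange). The black points lie between 0.49 (STAT6) and 3.08 (JAK3), and STAT5A has the narrowest bar among the 8 black ones.

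The kinases come first. JAK1, which serves interferon, interleukin-2 and interleukin-6 type receptors, was bright in all lines. Its log2 signal was 10.05 and 9.90 in the L428 duplicates, 10.29 and 10.12 in L1236, 11.43 and 11.39 in KM-H2, 11.40 and 11.16 in HDLM2, 10.74 in L540 and 10.56 in L540Cy. Among the non-Hodgkin arrays it was 9.81 and 9.73 in Reh, 10.41 and 9.81 in Namalwa and 9.02 in SU-DHL-4. The groups overlapped, because Namalwa lay above L428. KM-H2 and HDLM2 stood at the top, 0.54 above L540, and SU-DHL-4 stood 0.74 below Reh. These were the only gaps between neighbouring lines that exceeded 2 standard errors of the gap as estimated from duplicate arrays. The group difference was 1.07 ± 0.41 (adjusted p = 0.294).

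JAK2, the kinase of the erythropoietin and GM-CSF receptors, had the widest range of the kinases inside the Hodgkin group. HDLM2 had 9.47 and 10.20 and L1236 had 9.48 in both arrays. L428 followed with 7.75 and 8.17, then L540Cy with 7.42 and L540 with 7.40. KM-H2 had 6.57 and 6.94, which lay beside Reh at 6.62 and 6.93. SU-DHL-4 had 6.36, and Namalwa was lowest with 4.99 and 4.90. The gap of 1.52 between L1236 and L428 and that of 1.42 between SU-DHL-4 and Namalwa exceeded 2 standard errors. The lines between them formed a series in which no neighbouring pair did. The group difference was 2.26 ± 0.80 (adjusted p = 0.264), and the groups overlapped through KM-H2 and Reh.

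JAK3, the partner of the common gamma chain, is known mainly from lymphoid and myeloid cells. It reached 10.11 and 10.37 in KM-H2, 9.91 and 9.74 in HDLM2, 9.65 in L540Cy and 9.13 in L540. L1236 had 8.38 and 8.69, and L428 had 8.23 and 8.10. Reh, with 7.86 and 8.33, was close to L428, with a gap of 0.07 that was within 2 standard errors. Namalwa, with 5.38 and 5.40, and SU-DHL-4, with 4.97, lay 2.71 or more below Reh and under a log2 signal of 6, where RMA compresses differences. The line means did not overlap, but by the smallest margin of the 3 genes, and with Reh replicate 2 alone Reh (8.33) lay above L428 (8.17). The non-Hodgkin lines had an SD of 1.70, against 0.87 in the Hodgkin lines. The difference of 3.08 was 4.06 without Reh (limma, adjusted p = 0.0369) and 2.49 without SU-DHL-4 (0.358).

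**Figure D2:**
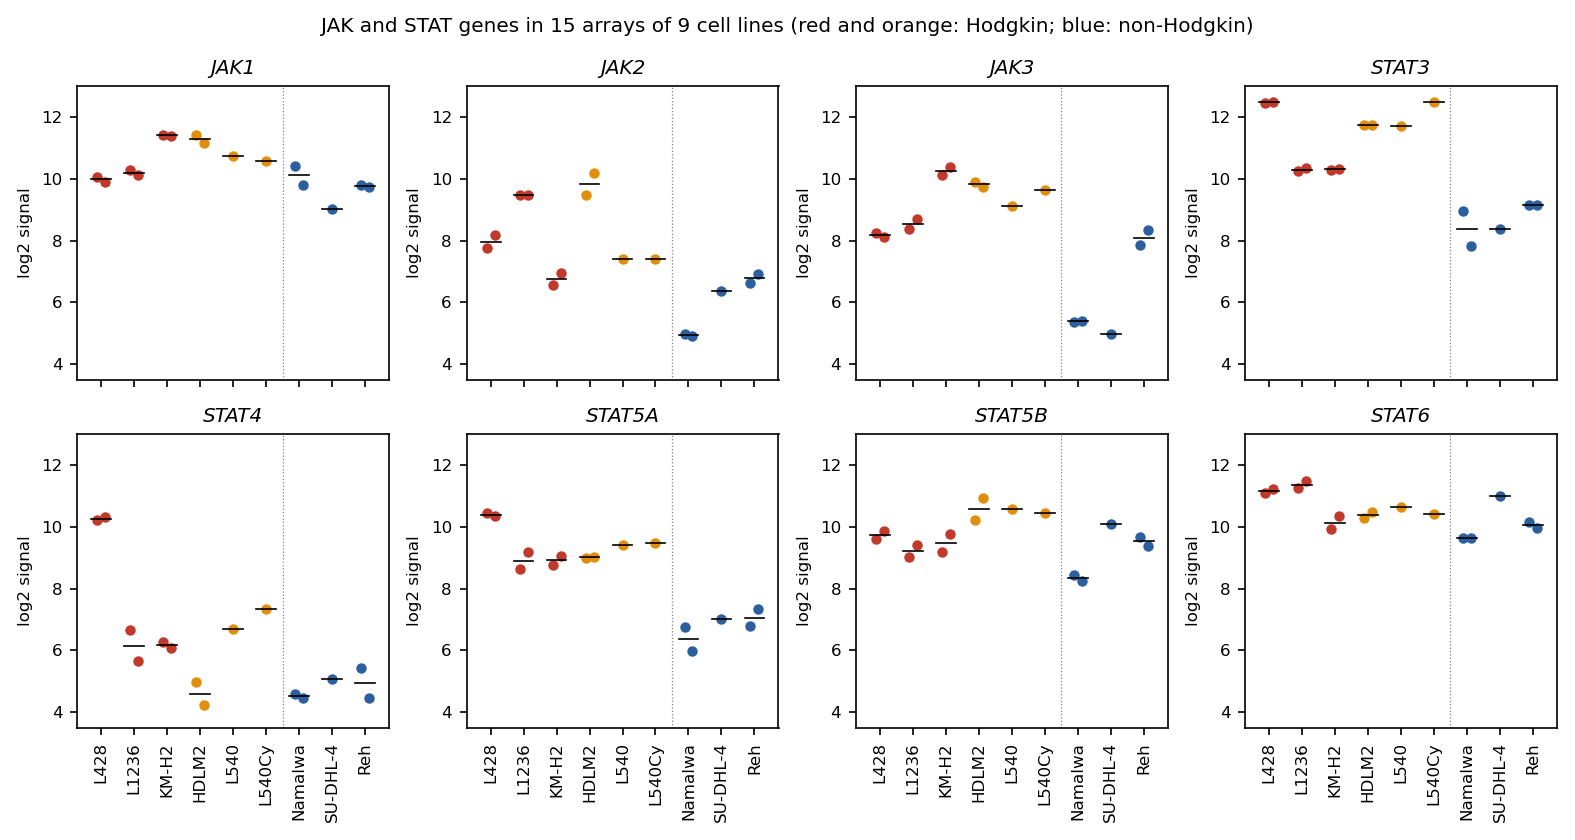
Log2 signal (vertical axis) of the used probe set of each gene on every array, by cell line; bars are line means, red marks B cell derived and orange T cell derived Hodgkin lines, and blue marks non-Hodgkin lines. For STAT5A the lowest Hodgkin array (8.62, L1236) lies above the highest non-Hodgkin array (7.33, Reh), while the STAT4 signal of L428 (10.21 and 10.32) stands alone.

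Among the factors, STAT3 mediates signals of the interleukin-6 and interleukin-10 families. It had 12.46 and 12.49 in L428, 12.47 in L540Cy, 11.75 in both arrays of HDLM2 and 11.71 in L540. KM-H2 had 10.29 and 10.32, and L1236 had 10.24 and 10.34. The non-Hodgkin arrays had 9.15 and 9.16 in Reh, 8.95 and 7.82 in Namalwa and 8.36 in SU-DHL-4. The lowest Hodgkin line was thus 1.14 above Reh, a gap over 2 standard errors, and no array crossed it. The Hodgkin lines fell into an upper set of L428, L540Cy, HDLM2 and L540 and a lower set of KM-H2 and L1236, with 1.41 between the sets. STAT3 passed the test when L540 and L540Cy counted as separate lines (adjusted p = 0.0427), when only genes with a mean over 6 were tested (0.0490), and when arrays replaced line means, with a random block for the line (0.00343). Its adjusted p-values ran from 0.00343 to 0.233 over 32 alternatives. The fit of arrays called 4 members, JAK2 (0.0385), JAK3 (0.00657), STAT3 and STAT5A, against 5.43% of all genes. That fit counts duplicate arrays and uses a correlation within lines that is shared by all genes. Counting L540 and L540Cy as separate lines adds a subline of the same patient. The smaller p-values of both settings therefore lean on arrays that are not independent.

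STAT5A, a target of interleukin-2, interleukin-7 and GM-CSF receptors, had a smaller SD than STAT3 or JAK3 in each disease group. L428 was highest with 10.44 and 10.35. L540Cy had 9.46, L540 9.40, HDLM2 8.98 and 9.04, KM-H2 8.75 and 9.07, and L1236 8.62 and 9.18. Below them lay Reh with 6.79 and 7.33, SU-DHL-4 with 7.01 and Namalwa with 6.77 and 5.998. The gap between L1236 and Reh was 1.84, and no neighbouring pair from L540Cy down to L1236 differed by more than 2 standard errors. Means were 9.33 ± 0.63 (SD, n = 5 lines) and 6.82 ± 0.38 (SD, n = 3 lines).

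STAT5B, the close relative of STAT5A, behaved differently. HDLM2 had 10.22 and 10.94, L540 10.58 and L540Cy 10.44. SU-DHL-4 followed with 10.10, then L428 with 9.62 and 9.87, Reh with 9.66 and 9.39, KM-H2 with 9.19 and 9.77 and L1236 with 9.04 and 9.41. Namalwa was lowest with 8.44 and 8.25, at 0.88 below L1236, which was the single gap over 2 standard errors. The group difference was 0.58 ± 0.48 (adjusted p = 0.627), and it was 0.09 without Namalwa. STAT5B, STAT5A and STAT3 lie within the same stretch of chromosome 17 in RefSeq. Side by side, their differences were 0.58, 2.51 and 2.75. None of the 10 nearest measured genes around the 3, 5 on each side, was called, against 1.37% of all genes. The median difference of these 10 was 0.10.

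STAT4, the factor of interleukin-12 signalling in T and NK cells, was a transcript of L428. That line had 10.21 and 10.32. L540Cy had 7.33, L540 6.71, KM-H2 6.26 and 6.07, and L1236 6.66 and 5.65. HDLM2 had 4.98 and 4.23, which fell among the non-Hodgkin arrays: SU-DHL-4 with 5.09, Reh with 5.42 and 4.45, and Namalwa with 4.61 and 4.47. L428 was 2.94 above the next line, and 4 lines (HDLM2, Reh, Namalwa and SU-DHL-4) had means under 6. The group difference of 1.99 ± 1.14 (adjusted p = 0.488) was 1.13 without L428.

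STAT6 carries interleukin-4 and interleukin-13 signals, and interleukin-13 is a known growth factor of Hodgkin lines. It had 11.25 and 11.47 in L1236 and 11.09 and 11.23 in L428. SU-DHL-4 followed with 10.98, L540 with 10.65, L540Cy with 10.41, HDLM2 with 10.29 and 10.48 and KM-H2 with 9.94 and 10.33. Reh had 10.16 and 9.95 and Namalwa 9.64 in both arrays. The groups overlapped, and the gap of 0.42 between Reh and Namalwa was the only one between neighbouring lines over 2 standard errors. The group difference was 0.49 ± 0.39 (adjusted p = 0.616), and it was 0.20 without Namalwa and 0.87 without SU-DHL-4.

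Several probe sets read different parts of 1 transcript, and they were compared as a check on the chosen ones. Of the 25 probe sets 1 was called, that of STAT5A (limma, adjusted p = 0.0298 over all probe sets), against 1.20% of all probe sets. STAT5A and STAT4 have 1 probe set each, so their values have no such check. The 4 STAT3 probe sets differed by 2.75, 2.34, 1.69 and 0.67, in the order of their brightness, and the 3 of JAK2 by 2.26, 2.07 and 1.60. The 5 of STAT5B differed by 0.58 to 0.79, and both of STAT6 by 0.49 and 0.57. For JAK3 the other 3 probe sets had means under 6 and differences of 0.25, 0.23 and -0.13, so the JAK3 difference rests on 1 probe set. It was 0.86 when all 4 were averaged. For JAK1 the brighter probe sets differed by 1.07, 0.97 and 0.64, and the 2 with means under 6 by 0.21 and -0.18.

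**Figure D3:**
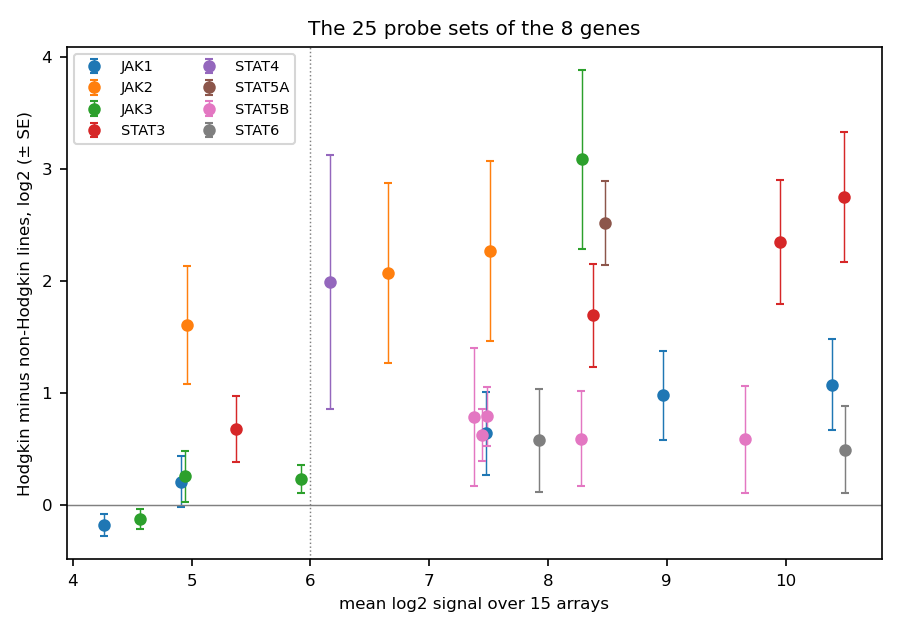
Each point is 1 of the 25 probe sets, placed by its mean log2 signal over 15 arrays (horizontal axis) and by the Hodgkin minus non-Hodgkin difference with its SE (vertical axis); colours name the genes and the dotted line is at 6. Differences near 0 lie mostly left of that line, among them 3 of the 4 JAK3 probe sets, while the brightest JAK3 probe set lies at 3.08.

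With the T cell derived lines left out of the contrast, STAT5A, STAT3, JAK3 and STAT4 did not overlap between the groups, 4 of 8 members against 21.1% of all genes. Without Reh replicate 1 JAK3 overlapped, which left 3 of 8 against 18.8%. L428, L1236 and KM-H2 exceeded the non-Hodgkin lines by 2.58 ± 0.45 in STAT5A (adjusted p = 0.0709), 2.39 in STAT3 (adjusted p = 0.184), 2.83 in JAK3 (adjusted p = 0.286) and 2.68 in STAT4 (adjusted p = 0.426). Without L428 the STAT4 difference was 1.31 (limma, adjusted p = 0.538). JAK2 differed by 2.04, JAK1 by 0.90, STAT6 by 0.66 and STAT5B by 0.16. None of the 8 was called by limma over line means, against 0.915% of all genes, and 3 had an unadjusted p under 0.05, against 12.9%. A fit of all arrays with a random block for the line called 3, JAK3, STAT3 and STAT5A, against 5.31% of all genes, with the limit of such a fit given above. Of 32 alternatives, that fit among them, 7 called STAT5A (limma, adjusted p = 0.00105 to 0.193 over the 32). This contrast shares its non-Hodgkin lines and 3 of its Hodgkin lines with the first one.

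Between the Hodgkin lines of T cell and B cell origin no member was called by limma, against 0.197% of all genes, and 0 of 8 had an unadjusted p under 0.05, against 7.49%. The fit of arrays with that random block called 0 as well, against 1.56%. STAT5B came nearest: HDLM2 and L540 lay above all 3 B cell derived lines, by 1.06 ± 0.49 (adjusted p = 0.708). STAT4 differed by -1.72 ± 1.37, which was -0.35 without L428, and STAT3 by 0.90 ± 0.69. With 2 lines against 3, differences of this size could not be told from the spread between lines.

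Every member differed between single lines. An F test over the 9 lines called all 8 members, against 51.9% of all genes, and one over the 5 Hodgkin lines of origin also called all 8, against 42.9%. Adjusted p-values of the latter ran from 1.7e-05 for STAT4 to 0.00906 for STAT5B, and STAT5A was lost without L428 replicate 1 (0.0691) or replicate 2 (0.0526). Spans were taken over the 8 lines of origin, with L540 and L540Cy averaged. The highest and lowest of these differed by 5.73 in STAT4, 5.27 in JAK3, 4.89 in JAK2 and 4.11 in STAT3. They differed by 4.01 in STAT5A, 2.39 in JAK1, 2.23 in STAT5B and 1.72 in STAT6. The members' median span was 4.06, against 1.02 over all genes and 1.73 over the 9355 genes that reach a log2 signal of 8 in some line. STAT4 spanned more than 96.9% of all genes, and STAT6 more than 70.0%. The spread in these fits comes from duplicate arrays, so the tests set lines, not diseases, apart.

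L428 was the line with high STAT4, STAT3 and STAT5A and low JAK1 and JAK3. Against the mean of L1236, KM-H2, HDLM2 and L540, 6 of 8 members were called, 4 higher and 2 lower, against 22.0% of all genes. STAT4 was higher by 4.36 ± 0.31 (limma, adjusted p = 8.3e-06), STAT3 by 1.46, STAT5A by 1.34 and STAT6 by 0.53. JAK3 was lower, at -1.27, and so was JAK1, at -0.93. The STAT6 call was lost without either array of L428 and with other choices of probe set.

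L1236 had high JAK2 and STAT6 beside low STAT3. There 6 of 8 members were called, 2 higher and 4 lower, against 22.6%. JAK2 was higher by 1.49 ± 0.21 (limma, adjusted p = 0.000579) and STAT6 by 0.78, while STAT3 differed by -1.27, STAT5B by -0.87, JAK3 by -0.81 and JAK1 by -0.65. Without 1 or the other L1236 array the calls of JAK1, JAK3, STAT5B and STAT6 were lost (adjusted p up to 0.207).

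KM-H2 combined the highest JAK1 and JAK3 with the lowest JAK2 of the Hodgkin lines. Of 8 members 5 were called, 2 higher and 3 lower, against 26.5%. JAK3 was higher by 1.32 ± 0.16 (limma, adjusted p = 0.000165) and JAK1 by 0.86, while JAK2 differed by -1.91, STAT3 by -1.25 and STAT6 by -0.75. The STAT6 call was lost without KM-H2 replicate 1 (adjusted p = 0.0656).

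HDLM2 had all 3 kinases above the mean of the other 4 Hodgkin lines. Of 8 members 5 were called, 4 higher and 1 lower, against 24.2%. JAK2 was higher by 1.94 ± 0.21 (limma, adjusted p = 9.4e-05), JAK3 by 0.81, JAK1 by 0.70 and STAT5B by 0.82, and STAT4 differed by -2.72 ± 0.31 (adjusted p = 0.000158). Calls of JAK1 and JAK3 were lost without HDLM2 replicate 1 and that of STAT5B without replicate 2, and all 3 were lost when the probe sets of a gene were averaged. In L540 1 of 8 members was called, JAK2 at -1.11 ± 0.27 (limma, adjusted p = 0.0196), against 15.1%.

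Between L540Cy and L540 none of the 8 members was called by limma, against 1.49% of all genes. An unadjusted p under 0.05 was reached by 0 of 8, against 2223 of 19775 genes. The largest differences were 0.76 ± 0.40 in STAT3 and 0.62 ± 0.55 in STAT4. Each line has 1 array, and its spread was taken from the duplicated lines.

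**Figure D4:**
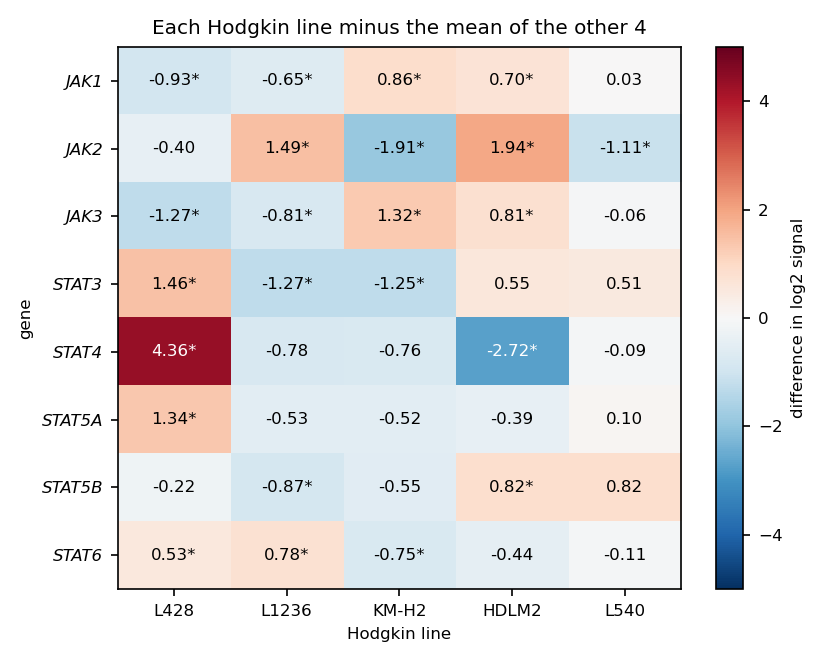
Difference in log2 signal between each Hodgkin line (columns; L540 without L540Cy) and the mean of the other 4, for each gene (rows); colour and printed value give the difference and a star marks an adjusted p under 0.05. JAK1 and JAK3 have the same sign in L428, L1236, KM-H2 and HDLM2, and the deepest colour is STAT4 in L428 at 4.36.

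Inside the Hodgkin group JAK1 and JAK3 had the same order of lines. Both ran from KM-H2 through HDLM2, the L540 pair and L1236 to L428. STAT6 ran nearly the other way, from L1236 and L428 down to HDLM2 and KM-H2. STAT3 and STAT5A shared L428 at the top and L1236 at the bottom. KM-H2 lay only 0.014 above L1236 in STAT3 and 0.0076 above it in STAT5A. L540Cy lay 0.0086 below L428 in STAT3. Each of these orders holds neighbouring lines within 2 standard errors of each other. The orders are descriptions of 5 lines and were not tested.

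The non-Hodgkin lines differed among themselves in kinases and in factors. Reh exceeded Namalwa in JAK3 by 2.71 ± 0.19, in JAK2 by 1.83 ± 0.25 and in STAT5B by 1.18 ± 0.27, so that 3 of 8 members were called, against 15.9%. Without Reh replicate 1 the JAK3 and JAK2 differences were 2.95 and 1.99, and STAT5B, at 1.04, was no longer called (limma, adjusted p = 0.0678). Reh exceeded SU-DHL-4 in JAK3 by 3.13 ± 0.24 and differed by -0.93 ± 0.22 in STAT6, 2 of 8 members against 7.89%. Namalwa differed from SU-DHL-4 by 1.09 in JAK1, -1.42 in JAK2, -1.76 in STAT5B and -1.34 in STAT6, 4 of 8 members against 9.77%. Averaging the probe sets ended the calls of JAK3 and STAT5B between Reh and Namalwa, of STAT6 between Reh and SU-DHL-4 and of JAK1 and JAK2 between Namalwa and SU-DHL-4. STAT6 between Reh and SU-DHL-4 was also lost without Reh replicate 2 (adjusted p = 0.105), and JAK2 between Namalwa and SU-DHL-4 without Namalwa replicate 2 (0.0609). STAT5B between Namalwa and SU-DHL-4 lost its call in 1 of 18 alternatives (limma, adjusted p = 0.106).

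The genes whose line means followed each member most closely were found among 7692 genes that span at least 1 log2 and reach 8. The measure was Pearson's r over 8 lines of origin, which share arrays and in several cases the gap between disease groups, so it is given as a description. JAK2 was followed by CTNS (r = 0.987), MYL5 (0.974) and PLD3 (0.962). JAK3 was followed by DENND5A (0.969), AKIP1 (0.968) and CAMK2N2 (0.967), and JAK1 by WRAP73 (0.945), C1orf198 (0.937) and the transferrin receptor TFRC (0.928). For STAT3 the genes were LINC00996 (0.985), TYW5 (0.982) and STX11 (0.976). For STAT5A they were MAP3K14, the NF-kB inducing kinase (0.978), the transcription factor RUNX2 (0.974) and MYO1C (0.972). STAT4 was followed by WDR45B (0.967), SNF8 (0.965) and SMG6 (0.936), STAT5B by RETREG3 (0.936), CCDC71L (0.934) and YIPF3 (0.932), and STAT6 by VPS37A (0.961), USP2 (0.924) and ATXN1 (0.917). LINC00996 shows how close such a match was: it had 9.27 in L428, 8.22 in L540, 8.04 in HDLM2, 5.78 in KM-H2 and 5.50 in L1236, and 3.68 to 4.11 in the non-Hodgkin lines.

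The rest of the pathway was read from lists of ligands, receptors, inhibitors, targets and partner proteins. Of 17 ligands measured none was called by limma in the first comparison, against 1.37% of all genes. An unadjusted p under 0.05 was reached by 3 of the 17, against 14.2% of all genes, and the ligands' median difference was 0.72. IL6, the ligand that acts through STAT3, differed by 3.86 ± 0.89 (limma, adjusted p = 0.104), with 7.47 to 11.29 in the Hodgkin lines and 5.52 to 5.88 in the others. IL15, which signals through JAK1, JAK3 and STAT5, differed by 3.56 ± 0.86 (adjusted p = 0.115). Between T cell and B cell derived Hodgkin lines 1 of the 17 ligands was called by limma, against 0.197% of all genes. It was IL7, at 1.76 (adjusted p = 0.0190). Its line means were 3.91 to 4.25 in the B cell derived lines and 5.67 and 6.04 in HDLM2 and L540.

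IL2RB and IL15RA, chains of the interleukin-2 and interleukin-15 receptors, were higher in the Hodgkin lines. Of 36 receptor genes 2 were called higher, against 0.759% of all genes, and 0 lower, with a median difference of 0.68. IL2RB, the beta chain on which JAK1 sits, had 9.91 in L428, 9.47 in L1236, 10.72 in KM-H2, 12.40 in HDLM2 and 12.48 in L540. It had 5.53 in Reh, 6.26 in Namalwa and 5.87 in SU-DHL-4, a difference of 5.11 ± 0.76 (limma, adjusted p = 0.0273). IL15RA, the chain that presents interleukin-15, had 8.72 to 10.03 against 5.33 to 7.17, a difference of 2.74 ± 0.47 (adjusted p = 0.0447). The other chains of these receptors did not pass: IL2RA differed by 3.48 (adjusted p = 0.308) and IL2RG by 1.98 (adjusted p = 0.135). The call for IL15RA was lost without any 1 of the 8 lines, at adjusted p-values up to 0.0917, and without Reh replicate 1 (0.0726). That of IL2RB was lost without KM-H2 (0.0509), Reh (0.0865), Namalwa (0.0852) or SU-DHL-4 (0.0954). Between T cell and B cell derived Hodgkin lines 2 of the 36 receptor genes were called by limma, against 0.197% of all genes. Both were higher, IL2RA at 4.50 (adjusted p = 0.0260) and IL6R at 4.37 (adjusted p = 0.00165).

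SOCS1, SOCS3 and USP18, feedback inhibitors of the pathway, were higher in the Hodgkin lines. Of 21 inhibitors 3 were called higher, against 0.759% of all genes, and 0 lower, while the list's median difference was 0.01. SOCS1, which blocks JAK kinases directly, had 10.44 to 11.25 in the Hodgkin lines against 6.12 in Reh, 7.30 in Namalwa and 8.38 in SU-DHL-4, a difference of 3.61 ± 0.46 (limma, adjusted p = 0.0159). SOCS3, the brake on interleukin-6 type receptors, had 7.20 to 10.86 against 3.81 to 3.86, a difference of 5.08 ± 0.89 (adjusted p = 0.0484). USP18, which restrains interferon receptor signalling, differed by 3.62 ± 0.63 (adjusted p = 0.0470). CISH, at 3.82 (adjusted p = 0.161), and SOCS2, at 3.21 (adjusted p = 0.450), did not pass. With all probe sets averaged the differences were 1.60 for SOCS1 (adjusted p = 0.0249) and 1.70 for SOCS3 (adjusted p = 0.131). Of 32 alternative settings 31 kept the call of SOCS1, 19 that of SOCS3 and 20 that of USP18. Without Reh replicate 1, SOCS3 (0.0576) and USP18 (0.0919) were no longer called.

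Of 24 genes listed as STAT targets 4 were called higher, against 0.759% of all genes, and 0 lower, with a median difference of 1.18. CCND2, which encodes cyclin D2, differed by 8.42 ± 0.38 (limma, adjusted p = 0.000103), with 12.13 to 13.24 in the Hodgkin lines against 3.65 to 4.91. GATA3, a T cell transcription factor, differed by 6.53 ± 0.70 (adjusted p = 0.00743) and TNFRSF8, which encodes CD30, by 4.92 ± 0.68 (adjusted p = 0.0199). TNFRSF8 is also among the markers of Hodgkin and Reed-Sternberg cells checked above, so its higher signal was already part of that check. BATF, an AP-1 family factor, differed by 2.99 ± 0.27 (adjusted p = 0.00281). CCND2, GATA3 and BATF kept their calls in all 32 alternative settings, and TNFRSF8 in 29. Each of these 4 genes has other regulators as well, and the members' part in their levels was not tested. Of 13 partner proteins none was called, against 1.37% of all genes. An unadjusted p under 0.05 was reached by 5 of the 13, against 14.2% of all genes, and the partners' median difference was -0.19. NMI, which binds STAT proteins, differed by 2.88 ± 1.32 (adjusted p = 0.385) and the adaptor SH2B2 by -2.56 ± 0.62 (adjusted p = 0.116).

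JAK2 lies on the short arm of chromosome 9, in band 9p24, beside the genes of the PD-1 ligands, CD274 and PDCD1LG2. Gains of this band are known in Hodgkin lymphoma, and the arrays hold no copy number. On the used probe set JAK2 was highest in HDLM2, 0.35 above L1236, a gap within 2 standard errors. Its other probe sets were highest in L1236. In HDLM2 12 of 19 other genes of the band's list were called against the other Hodgkin lines, all 12 of them higher. Over all genes 24.2% were called in either direction. The median difference over all 19 was 1.69. CD274 was higher by 3.72 ± 0.29 (limma, adjusted p = 1.2e-05), PDCD1LG2 by 3.68 ± 0.27, SMARCA2 by 2.65 ± 0.22, PLGRKT by 2.43 ± 0.22 and VLDLR by 4.91 ± 0.30, against 1.94 ± 0.21 for JAK2. SMARCA2 had line means of 12.08 in HDLM2, 11.53 in L428, 10.54 in L1236 and 10.53 in KM-H2. Its mean was 4.82 in L540 averaged with L540Cy, so a low L540 enlarges the SMARCA2 difference. Of the 19 genes 16 had their highest line mean in HDLM2, as did 12.7% of all genes.

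**Figure D5:**
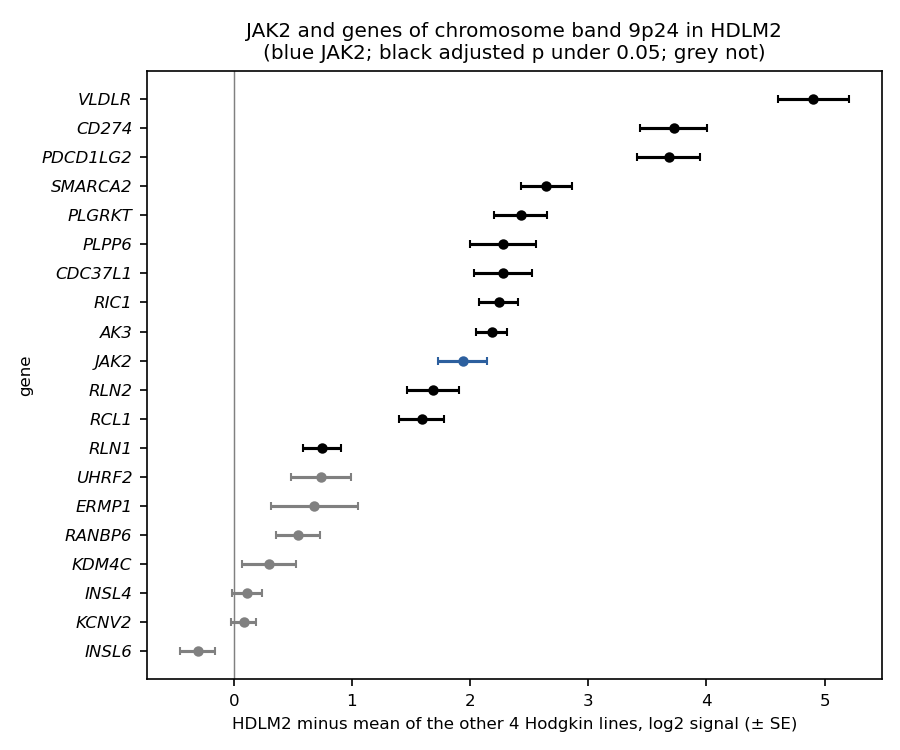
Difference in log2 signal between HDLM2 and the mean of the other 4 Hodgkin lines (horizontal axis, bars ± SE) for JAK2 (blue) and 19 other genes of band 9p24; black marks an adjusted p under 0.05 and grey the rest. The 12 black points lie between 0.75 (RLN1) and 4.91 (VLDLR), with JAK2 at 1.94 among them.

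In L1236, the other line with high JAK2, 3 of the 19 genes were called higher and 5 lower, with a median difference of -0.10, against 12.7% of all genes higher and 9.83% lower. In L540 0 were higher and 9 lower, with a median of -0.74, against 6.21% and 8.91% of all genes. Over the 8 lines the 19 genes had a median r of 0.70 with JAK2, against -0.07 over all genes, as a description of lines in which HDLM2 weighs heavily. In the comparison of Hodgkin with non-Hodgkin lines none of the 19 was called by limma, against 1.37% of all genes. An unadjusted p under 0.05 was reached by 7 of the 19, against 14.2% of all genes. CD274 differed by 4.87 ± 1.22 (limma, adjusted p = 0.125), with 12.56 in HDLM2, 10.38 in L1236, 10.11 in L540, 7.58 in KM-H2 and 7.02 in L428 against 4.44 to 4.84, and PLGRKT by 2.27 ± 0.63 (adjusted p = 0.162).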

How the data were processed

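Each deposited value is a probe set's signal on the log2 scale after RMA (background correction, normalization between arrays and summary of probes), per the submitters' processing notes. Which software ran it, and with what settings, is not given in the sources used here. RNA was extracted from the cultures with an RNeasy kit, per the labels' protocols. RMA compresses differences near background, and the number of arrays limits the precision.

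The table held 54675 probe sets. The 62 control probe sets, the 1801 with several symbols in the platform annotation and the 11721 with none there were left out. The members, gene lists and comparisons were chosen with earlier results of these data known. No list was tested as a set.

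Line means were compared by the moderated test of limma 3.58.1 (lmFit, eBayes) under R 4.3.3. It was two-sided, p-values were adjusted by Benjamini-Hochberg across the 19775 genes, and 0.05 was the threshold. The fit for Hodgkin against non-Hodgkin lines had 6 residual degrees of freedom and that with 3 groups had 5. Single lines were compared in a fit of all 15 arrays with 1 mean per line and 6 residual degrees of freedom, which come from the 6 duplicated lines. The p-values of that fit measure the spread between duplicate cultures. The line mean and array fits were tested on simulated data with independent normal spread, which holds no shift shared by arrays. Of 50 genes changed at each of 1, 2, 4 and 6 log2, the line mean fit recovered 27, 36, 45 and 46, with 6 false calls. The F test among the Hodgkin lines recovered 17, 45, 48 and 49, with 8 false calls.

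All members were named. Of each pathway list up to 3 called genes per direction were named, or the 2 with the largest difference where none was called; BATF is named beyond that rule, after its values were seen, to complete a count of 4. The same holds for the genes called between T cell and B cell derived lines and for the genes of band 9p24 named in HDLM2. IL2RA, IL2RG, CISH and SOCS2, not called in the first comparison, are named there beyond the rule as well. Uncalled receptor genes with larger differences, such as IL13RA1 at 5.12, are not named in the results. Promoter sequences are from RefSeq (GRCh38.p14); 17 windows matched the 9 symbols.

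Alternatives changed 1 choice at a time, except that the fits of the 12 numbered arrays also replaced line means by arrays with a random block and left out the lines with 1 array. They were L540 and L540Cy as separate lines or either left out, arrays with a random block for the line, the 12 numbered arrays with and without a replicate block, other choices of probe set, a filter at a mean of 6, another normalization or centring, eBayes with trend and robust variance, and each line or duplicated array left out. Leaving out L540 while keeping L540Cy was chosen after seeing the data. The changes of L540 and L540Cy, the random block and the leaving out of whole lines were made in the group comparisons only. Fits of single lines were repeated with the other changes.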

Additional observations from a re-analysis of the deposited data

How the results depend on the processing

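Over 32 alternatives all 8 differences between Hodgkin and non-Hodgkin lines stayed positive, at 2.24 to 2.64 for STAT5A (adjusted p = 0.000385 to 0.0997). The reversed values, none of them called, were STAT5B in B cell derived Hodgkin against non-Hodgkin lines without Namalwa (-0.33; range over left-out lines and arrays -0.33 to 0.55), and, between T cell and B cell derived lines, JAK2 without KM-H2 (-0.10) or HDLM2 (-0.66; range -0.66 to 1.77) and STAT5A without L428 (0.31) or HDLM2 (0.03; range -0.43 to 0.31). Another quantile normalization or centring moved the median of all genes from -0.02 to -0.04. The cause of these changes was not tested.

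The counts of called genes followed the fit. For Hodgkin against non-Hodgkin lines (150 higher, 121 lower) they were 233 and 191 with L540 and L540Cy as 2 lines and 599 and 475 over arrays with a random block for the line, with ranges of 68 to 218 and 69 to 181 over left-out lines and arrays. For B cell derived Hodgkin against non-Hodgkin lines (113 higher, 68 lower) they were 109 lower with L540 and L540Cy as 2 lines and 619 and 431 over arrays, with ranges of 66 to 166 and 47 to 132. For T cell against B cell derived lines (29 higher, 10 lower) they were 51 and 31 with 2 lines, 151 and 158 over arrays, and 14 higher among genes with a mean over 6, with ranges of 14 to 117 and 4 to 42.

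Same-numbered arrays were not taken as pairs in the main fits, although 10 of 15 pairs of lines had a correlation of deviations over 0.1 (median 0.198, -0.07 to 0.36). A shift shared by arrays with the same replicate number was thus not modelled in the main fits. On the 12 numbered arrays without and with a replicate block the counts were 416 and 328 higher and 275 and 243 lower in the first comparison, 541 and 424 higher and 365 and 310 lower in the second, and 348 and 297 higher and 212 and 149 lower in the third. STAT5A was called in the first comparison either way, with adjusted p = 0.0152 under the replicate block, and STAT3 was called without the block (0.0353) but not with it (0.0586).

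Leaving out single duplicated arrays gave 2183 to 4905 called genes for L428, 2393 to 5021 for L1236, 3246 to 5795 for KM-H2 and 3057 to 5315 for HDLM2 against the other Hodgkin lines. It gave 158 to 465 for L540Cy against L540, 2292 to 4759 for Reh against Namalwa, 1084 to 2858 for Reh against SU-DHL-4 and 1467 to 3104 for Namalwa against SU-DHL-4. Without 1 array of a line fewer degrees of freedom remain.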
